A study of Mus musculus with 41 samples.

Results

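CXC chemokines are small secreted proteins that attract leukocytes, and their receptors are the G protein-coupled receptors that those leukocytes carry. The 10 genes described here are 7 ligands (Cxcl1, Cxcl2, Cxcl9, Cxcl10, Cxcl13, Cxcl14 and Cxcl16) and 3 receptors (Cxcr2, Cxcr3 and Cxcr4). They were taken by gene symbol from the 43346 genes counted in RNA from mouse tibiae. All 10 passed the filter on low counts, as did 19292 genes in all. Cxcl1 and Cxcl2 bind Cxcr2 and draw neutrophils, while Cxcl9 and Cxcl10 are induced by interferon and bind Cxcr3 on activated T cells and NK cells. Cxcl13 guides B cells through Cxcr5, Cxcl16 is the ligand of Cxcr6, and Cxcl14 is a constitutively made chemokine of epithelia and stroma. Cxcr4 responds to Cxcl12, made by marrow stromal cells, and holds blood stem cells and maturing neutrophils in the marrow. Several of these ligands belong to the secretory phenotype of senescent cells.

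All 41 mice were female and carried the INK-ATTAC transgene on a C57BL/6 background. In this line the p16Ink4a promoter drives a caspase that the drug AP20187 (AP) activates, so that cells expressing p16Ink4a can be cleared. There were 12 young mice (6 to 12 months of age per the labels), 13 old mice on vehicle and 16 old mice on AP at 10 mg per kg, both old groups injected from 20 months of age for 4 months. The young mice received vehicle per the labels. The tibiae were centrifuged before RNA extraction to remove marrow.

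Total counts per mouse ranged from 37028959 to 75942717, so that 1 count equalled between 0.0116 and 0.0302 CPM (counts scaled to library size, with TMM factors). Cdkn2a, which encodes p16Ink4a and serves as the check of the model, had a median of 0.587 CPM in young, 2.20 CPM in vehicle-treated old and 1.10 CPM in AP-treated old mice. It rose with age (log2 fold change, log2FC, 2.22, standard error 0.43, edgeR adjusted p = 0.000332). Under AP its log2FC was -0.67 (edgeR adjusted p = 0.265). The osteoblast marker Bglap (medians 843, 228 and 185 CPM in young, vehicle-treated old and AP-treated old mice) and the osteocyte marker Dmp1 (530, 570 and 571 CPM) were read in every mouse, as bone should give. The neutrophil marker S100a8 was also high, with group medians of 1585, 2136 and 2404 CPM, so that transcripts of marrow cells were present after centrifugation. In whole tissue, fewer cells of a type and less RNA per cell cannot be told apart.

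The vehicle-treated old mouse JF16 stood apart in this gene family, and the members called in each comparison are therefore given with and without it. Its Cxcl1 level was 11.9 CPM (505 counts), 62.3 times the median of the other 12 vehicle-treated mice, whose highest value was 0.423 CPM. Its Cxcl2 level, 3.71 CPM, was 8.43 times their median and its Cxcl16 level, 22.8 CPM, was 1.28 times their median, and both lay above all 12. Cxcr2 (30.3 CPM), Cxcr3 (3.08 CPM) and Cxcr4 (52.2 CPM) were lower in JF16 than in any other of the 41 mice. The other neutrophil-attracting ligands Cxcl5 (19.2 CPM against at most 2.60 in the other 12) and Cxcl3 (1.22 CPM against at most 0.157) were also at their highest in JF16. Cxcl12 (570 CPM against at least 787) and the platelet chemokine Ppbp (80.7 CPM against at least 112) were at their lowest, while Pf4, also a platelet chemokine, was above the other 12 (93.8 CPM against at most 79.8). Of the ligands of Cxcr2 read in JF16, Cxcl1, Cxcl2, Cxcl3 and Cxcl5 were thus high and Ppbp was low.

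**Figure D1:**
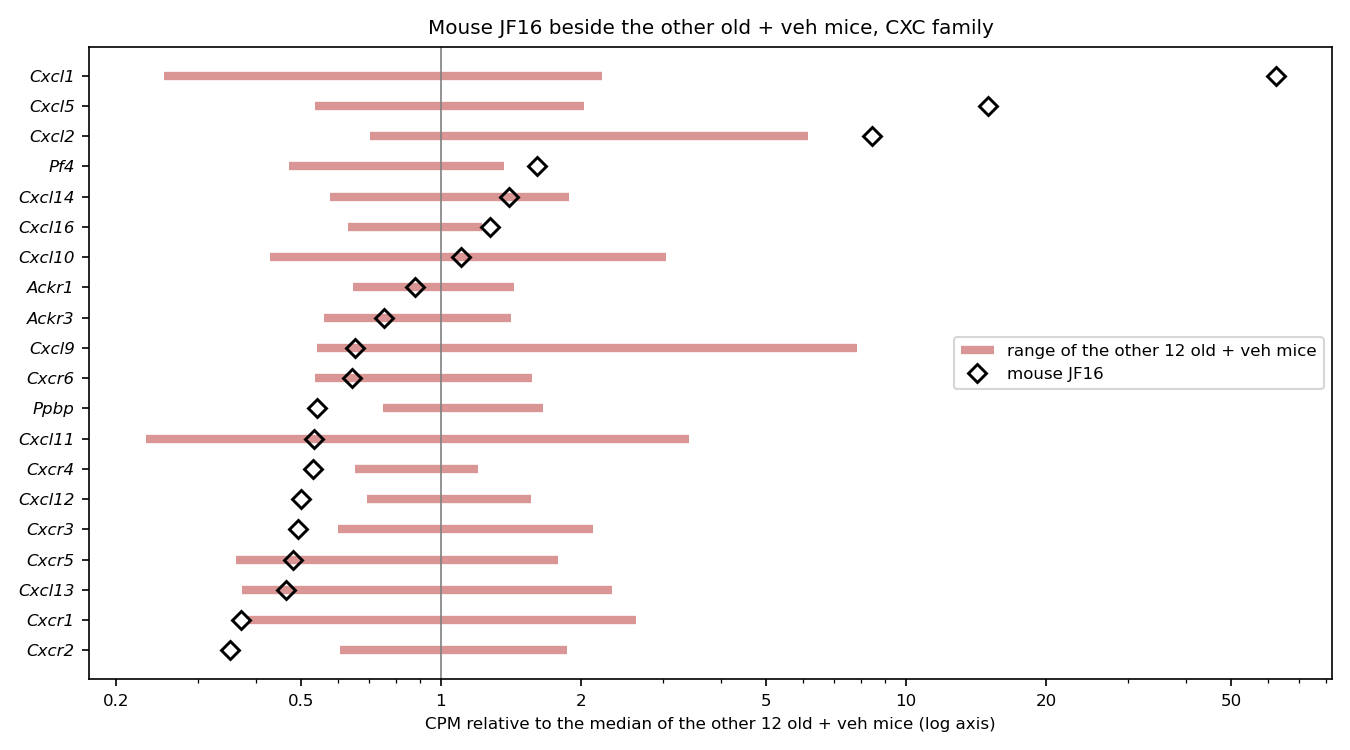
Level of each CXC gene in mouse JF16 (diamonds) divided by the median of the other 12 vehicle-treated old mice, on a log axis, with the range of those 12 mice as bars. Cxcl1, Cxcl5 and Cxcl2 lie right of the bars, at 62.3, 15.03 and 8.43 times the median, as do Pf4 (1.61) and Cxcl16 (1.28), and Cxcr2, Cxcr1, Cxcr3, Cxcr4, Cxcl12 and Ppbp lie left of them. Genes with a 0 among the 12 mice are not drawn.

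Beyond this family, 10 of 20 genes of acute inflammation were above and 3 were below the other 12 vehicle-treated mice in JF16. Those above included Il6 (6.81 CPM against at most 0.904) and Ptgs2, the inducible cyclooxygenase (23.2 CPM against at most 2.28). They also included Csf3 and Ccl20, read at 9 and 4 counts. Those below were Tnf (1.43 CPM against at least 2.11), Tnfaip3 (17.1 against at least 20.6) and Lcn2 (399 against at least 618). Summed, the 20 genes were at 836 CPM in JF16, 0.594 times the median of the other 12. All 10 neutrophil markers, 9 of 10 T and NK cell, 5 of 8 erythroid and 4 of 8 B cell markers were below the other 12. Of 20 interferon-induced genes 13 were below them and 0 above. The summed neutrophil markers were 4954 CPM in JF16 and 9488 to 25850 CPM in the others. The part of this composition in the JF16 values was not tested. JF16 was the highest of the 13 vehicle-treated mice in 14% of the tested genes and the lowest in 16.2%. Mouse JF20, with 20.2% and 12.1%, was at an extreme about as often.

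Of the 10 genes, 5 lie on chromosome 5. Cxcl1 and Cxcl2 belong to a cluster that runs over 147 kb from Cxcl5 to Cxcl2 and also holds Ppbp, Pf4, Cxcl3 and Cxcl15. Cxcl9 and Cxcl10 lie beside Cxcl11 within 44.2 kb. The stretches before the starts of these 4 genes are shown because Cxcl1 and Cxcl2 were raised together in JF16, while Cxcl9 and Cxcl10 peaked in the same pair of other mice. Each line gives the 250 bases before the start on the gene's own strand (RefSeq, GRCm38.p6). Capitals mark matches, on either strand, to the NF-kB-like motif GGNNTTTCC or the ISRE-like motif GAAANNGAA, the latter a short form of the interferon-stimulated response element.
Cxcl1: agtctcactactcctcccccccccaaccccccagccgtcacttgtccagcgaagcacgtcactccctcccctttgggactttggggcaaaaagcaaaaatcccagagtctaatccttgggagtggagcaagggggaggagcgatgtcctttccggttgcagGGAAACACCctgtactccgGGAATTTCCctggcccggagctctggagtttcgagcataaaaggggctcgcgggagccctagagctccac
Cxcl2: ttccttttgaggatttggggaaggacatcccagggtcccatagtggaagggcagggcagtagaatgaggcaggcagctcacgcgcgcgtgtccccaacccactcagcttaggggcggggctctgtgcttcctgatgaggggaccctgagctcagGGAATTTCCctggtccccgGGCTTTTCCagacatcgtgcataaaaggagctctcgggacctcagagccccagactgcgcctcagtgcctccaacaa
Cxcl9: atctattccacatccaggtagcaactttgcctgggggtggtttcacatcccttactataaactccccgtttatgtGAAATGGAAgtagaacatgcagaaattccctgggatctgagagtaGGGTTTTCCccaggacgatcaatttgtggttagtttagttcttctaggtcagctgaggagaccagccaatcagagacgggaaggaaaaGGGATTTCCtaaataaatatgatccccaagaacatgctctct
Cxcl10: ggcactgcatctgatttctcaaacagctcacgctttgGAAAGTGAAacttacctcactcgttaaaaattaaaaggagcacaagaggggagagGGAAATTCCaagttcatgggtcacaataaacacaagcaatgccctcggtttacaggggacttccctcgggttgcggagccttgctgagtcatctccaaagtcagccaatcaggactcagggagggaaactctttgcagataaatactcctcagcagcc

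These windows are chr5:90890995-90891244 (plus strand) for Cxcl1, chr5:90903649-90903898 (plus strand) for Cxcl2, chr5:92328080-92328329 (minus strand) for Cxcl9 and chr5:92348890-92349139 (minus strand) for Cxcl10. Of the 9 members found in the promoter table (Cxcl16 was not matched), 4 held the NF-kB-like motif, namely the 4 genes printed. Cxcl1, Cxcl2 and Cxcl9 each had 2 matches and Cxcl10 had 1. Over all 32851 promoters of 300 bases (250 before and 50 after the start), 5.82% held this motif. The ISRE-like motif was found in 3 members, Cxcl9, Cxcl10 and Cxcl14, and in 8.56% of all promoters. The GAS-like motif TTCNNNGAA was found in 1 member, Cxcl14, and in 8.3% of all promoters. Motif matches overlapped in none of the printed sequences, and a match describes letters, not binding.

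To compare levels between genes, CPM was divided by exonic length in kb. Among the 10 members in young mice, Cxcr4 (median 53.0 CPM per kb) and Cxcl14 (52.7 CPM per kb) were the highest, followed by Cxcr2 (24.3 CPM per kb). Cxcl16 (5.20), Cxcl9 (4.201), Cxcr3 (3.07), Cxcl10 (1.90) and Cxcl13 (1.25 CPM per kb) came next. Cxcl1 (0.186) and Cxcl2 (0.181 CPM per kb) were the lowest and could not be ordered, since their ranges in young mice covered each other. Cxcl12, the ligand of Cxcr4 and not itself a member, stood at 217 CPM per kb, above all 10. In vehicle-treated old mice the median of Cxcl13 (4.11 CPM per kb) was above those of Cxcl10 (2.81) and Cxcr3 (3.44 CPM per kb). In AP-treated old mice Cxcl13 (3.44) was above Cxcl10 (2.59) but below Cxcr3 (3.86 CPM per kb). The ranges of these 3 genes overlapped in both old groups, so they could not be ordered there either.

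**Figure D2:**
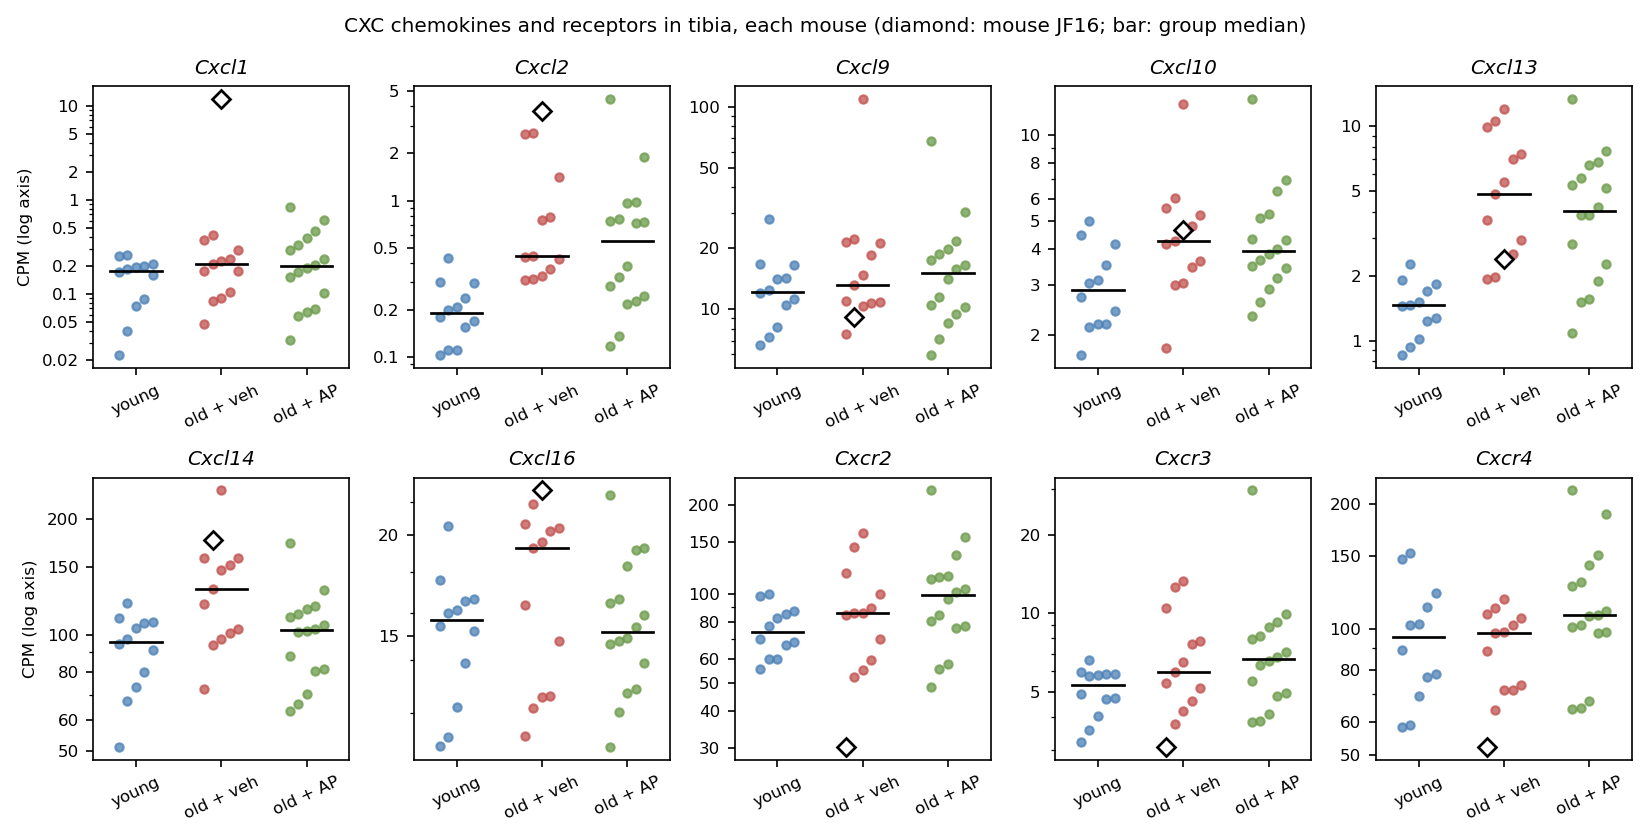
CPM of the 10 genes in each of the 41 mice on log axes, with 12 young, 13 vehicle-treated old (old + veh) and 16 AP-treated old (old + AP) mice, bars at the group medians and a diamond for mouse JF16. Groups overlap for all 10 genes. Cxcl13 shows the clearest step with age, from a median of 1.46 CPM to 4.82 and 4.03 CPM.

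The first comparison asked which of these genes differ with age, between 13 vehicle-treated old and 12 young mice. Cxcl1, Cxcl2, Cxcl13 and Cxcl14 rose, a count of 4 of 10, and no member fell. A gene was called at a Benjamini-Hochberg adjusted p under 0.05 with a log2FC past 0.5 in either direction. Over all tested genes 4.30% were called higher and 4.76% lower. Without JF16, 3 members rose (Cxcl2, Cxcl13 and Cxcl14), against 3.57% of all genes called higher and 4.35% lower. The median log2FC of the 10 genes was 0.60 with and 0.51 without JF16, beside 0.01 over all tested genes in both fits.

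Cxcl13, the B cell attractant, changed with the smallest p of the 10. It ranged from 0.853 to 2.27 CPM in young mice with a median of 1.46, from 1.93 to 12.0 CPM in vehicle-treated old mice with a median of 4.82, and from 1.08 to 13.4 CPM in AP-treated old mice with a median of 4.03. All 13 vehicle-treated mice lay above the young median, and 11 of them above the highest young mouse. The log2FC was 1.94 (standard error 0.34, edgeR adjusted p = 9.4e-05), and 2.01 without JF16 (edgeR adjusted p = 7.7e-05). In 25 fits that each left out a mouse it stayed between 1.80 and 2.02 and was called in all 25.

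Cxcr5, the receptor of Cxcl13 on B cells, had a median of 7.16 CPM in young, 5.32 in vehicle-treated old and 5.10 CPM in AP-treated old mice. It fell in AP-treated old against young mice (log2FC -0.75, edgeR adjusted p = 0.0191). In vehicle-treated old against young mice its log2FC was -0.62 (edgeR adjusted p = 0.0613). Of 8 B cell markers, 6 were called lower in vehicle-treated old against young mice, where 4.76% of all tested genes were. In AP-treated old against young mice 1 of the 8 was called lower, beside 4.85% of all tested genes. The summed markers had medians of 273 CPM in young, 149 CPM in vehicle-treated old and 198 CPM in AP-treated old mice. In vehicle-treated old mice Cxcl13 was thus higher and most of these B cell markers were lower than in young mice. The part of B cell content in these values was not tested.

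Cxcl2 was read at low levels, with a median of 8.5 counts in young mice. It ranged from 0.103 to 0.430 CPM in young mice (median 0.191), from 0.310 to 3.71 CPM in vehicle-treated old mice (median 0.443) and from 0.118 to 4.47 CPM in AP-treated old mice (median 0.553). All 13 vehicle-treated mice exceeded the young median and 8 exceeded the highest young mouse, with a long upper tail in JF16, JF13 (2.71 CPM) and JF6 (2.67 CPM). The log2FC was 2.41 (standard error 0.52, edgeR adjusted p = 0.00105), and 2.11 without JF16 (edgeR adjusted p = 0.00339). In the AP group the highest mouse was JF29, at 11.7 times the median of the other 15.

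Cxcl1, with Cxcl2 the lowest per kb of the member ligands in young mice, had a median of 9 counts in both young and vehicle-treated old mice. Its levels were 0.0222 to 0.260 CPM in young mice (median 0.177), 0.0483 to 11.9 CPM in vehicle-treated old mice (median 0.206) and 0.0327 to 0.844 CPM in AP-treated old mice (median 0.195). The medians of the 3 groups were thus close, and 7 of 13 vehicle-treated mice lay above the young median. The log2FC of 2.83 (standard error 0.72, edgeR adjusted p = 0.00455) became 0.38 without JF16 (standard error 0.42, edgeR adjusted p = 0.579). Cxcl1, Cxcl2 and Cxcl3 are close paralogues, and reads that map to more than one of them could not be followed here.

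Cxcl14, at the highest level per kb of the 7 member ligands, ranged from 51.2 to 121 CPM in young mice (median 96.0), from 72.5 to 237 CPM in vehicle-treated old mice (median 131) and from 63.3 to 173 CPM in AP-treated old mice (median 103). It exceeded the young median in 11 of 13 vehicle-treated mice. The rise was small, with a log2FC of 0.54 (standard error 0.16, edgeR adjusted p = 0.0115), and 0.51 without JF16 (edgeR adjusted p = 0.0229). Because the value sits just past the threshold of 0.5, the call was lost in 2 of 25 fits that left out a mouse, at 0.45 without JF6 and 0.49 without JF40. It was also lost with limma voom (0.43) and without JF13, JF16 and JF29 (0.49). Summed markers of endothelial cells had medians of 610, 793 and 705 CPM in young, vehicle-treated old and AP-treated old mice. Those of stromal reticular cells had 565, 359 and 360 CPM, and those of osteocytes 1341, 1449 and 1495 CPM. Spearman's rho of Cxcl14 within groups (log2 CPM centred on each group's mean) was 0.57 with 8 endothelial, 0.56 with 7 stromal reticular cell, 0.55 with 6 osteocyte and 0.47 with 8 osteoblast markers over 41 mice, and 0.57, 0.67, 0.64 and 0.47 without JF16. The part of these cells in the Cxcl14 values was not tested.

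Cxcl10 and Cxcl9, the interferon-induced ligands of Cxcr3, did not pass. Cxcl10 ranged from 1.70 to 5.003 CPM in young mice (median 2.89), from 1.81 to 12.9 CPM in vehicle-treated old mice (median 4.27) and from 2.34 to 13.4 CPM in AP-treated old mice (median 3.93). In vehicle-treated old mice 12 of 13 values lay above the young median, with a log2FC of 0.65 (standard error 0.25, edgeR adjusted p = 0.0569). It was called by DESeq2 (adjusted p = 0.0425), by limma voom with sample weights (adjusted p = 0.0242) and in 5 of 25 edgeR fits that left out a mouse (JF2, JF7, JF22, JF37 or JF38, with values from 0.70 to 0.74). Its edgeR adjusted p was 0.0415 with only these 2 groups in the fit. Without JF23, the vehicle-treated mouse with its highest level, the log2FC was 0.44 (edgeR adjusted p = 0.186). Cxcl9 ranged from 6.63 to 27.8 CPM in young mice (median 12.2), from 7.55 to 109.5 CPM in vehicle-treated old mice (median 13.1) and from 5.91 to 68.0 CPM in AP-treated old mice (median 15.02). Its log2FC of 0.72 (standard error 0.37, edgeR adjusted p = 0.176) was 0.12 without mouse JF23 (edgeR adjusted p = 0.83). Without JF16, Cxcl10 had 0.66 (edgeR adjusted p = 0.068) and Cxcl9 0.78 (edgeR adjusted p = 0.147).

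Cxcl16, which is made as a membrane-bound protein by macrophages and other cells, ranged from 10.9 to 20.5 CPM in young mice (median 15.7), from 11.3 to 22.8 CPM in vehicle-treated old mice (median 19.3) and from 10.9 to 22.5 CPM in AP-treated old mice (median 15.1). Its log2FC with age was 0.19 (standard error 0.12, edgeR adjusted p = 0.289), and 0.15 without JF16 (edgeR adjusted p = 0.432), and the ranges covered each other. Its receptor Cxcr6 had medians of 2.57, 3.32 and 3.36 CPM in young, vehicle-treated old and AP-treated old mice. Cxcr6 was called higher in AP-treated old against young mice (log2FC 0.53, edgeR adjusted p = 0.0436), and its value in vehicle-treated old against young mice was 0.47 (edgeR adjusted p = 0.0879).

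None of the 3 receptors passed with age. Cxcr2 ranged from 55.7 to 100 CPM in young mice (median 74.1), from 30.3 to 160 CPM in vehicle-treated old mice (median 85.8) and from 48.4 to 224 CPM in AP-treated old mice (median 98.7). The spread between old mice was wider than between young mice, with standard deviations of 36.7 (n = 13) and 43.5 (n = 16) against 14.9 CPM (n = 12), a difference that was not tested. Cxcr2 had a log2FC of 0.20 in vehicle-treated old against young mice (standard error 0.20, edgeR adjusted p = 0.543).

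Cxcr3 ranged from 3.22 to 6.60 CPM in young mice (median 5.32), from 3.08 to 13.2 CPM in vehicle-treated old mice (median 5.95) and from 3.81 to 29.5 CPM in AP-treated old mice (median 6.68). Its log2FC with age was 0.45 (standard error 0.26, edgeR adjusted p = 0.221). Cxcr4 ranged from 58.3 to 153 CPM in young mice (median 95.9), from 52.2 to 118 CPM in vehicle-treated old mice (median 98.05) and from 64.4 to 216 CPM in AP-treated old mice (median 108). Its log2FC with age was -0.12 (standard error 0.18, edgeR adjusted p = 0.678). The groups overlapped, though the 3 highest young mice (122.5, 147.9 and 153 CPM) lay above every vehicle-treated mouse. Without JF16, the lowest mouse for all 3 receptors, the log2FC was 0.28 for Cxcr2, 0.52 for Cxcr3 and -0.07 for Cxcr4 (edgeR adjusted p = 0.353, 0.162 and 0.824).

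Cxcl12, the ligand of Cxcr4, fell with age. Cxcl12 ranged from 1039 to 2201 CPM in young mice (median 1770) and from 570 to 1778 CPM in vehicle-treated old mice (median 1111), a log2FC of -0.61 (standard error 0.14, edgeR adjusted p = 0.00165). Without JF16 it was -0.56 (edgeR adjusted p = 0.00296). Of 8 further ligands of the family 5 could be tested, of which 3 fell (Cxcl12, Pf4 and Ppbp) and none rose. Pf4 and Ppbp, both stored in platelets, had log2FCs of -0.76 (edgeR adjusted p = 0.0272) and -1.13 (edgeR adjusted p = 0.00301). Without JF16, Cxcl5 fell as well (log2FC -0.90, edgeR adjusted p = 0.0117), while with it the value was 0.09 (edgeR adjusted p = 0.91). Of 5 further receptors, 1 rose, namely Cxcr1, a second neutrophil receptor (log2FC 0.81, edgeR adjusted p = 0.037). In AP-treated old against young mice only 1 of the 5 tested ligands fell and 0 rose. The further receptors called there were Cxcr6 (higher) and Cxcr5 (lower), not Cxcr1. Markers of stromal reticular cells, which make Cxcl12, summed to a median of 565 CPM in young and 359 CPM in vehicle-treated old mice, and their part in the Cxcl12 values was not tested.

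Among 18 tested genes of NF-kB signalling and acute inflammation, 6 rose with age and 0 fell, with a median log2FC of 0.35. Without JF16, 1 rose, the cytokine signalling inhibitor Socs3 (log2FC 0.79, edgeR adjusted p = 0.00339). The other 5 were Il6, Ptgs2, Saa3 and the CC chemokines Ccl2 and Ccl7, which did not pass without that mouse. Of 20 interferon-induced genes 0 were called with all mice and 1 without JF16, Cd274 (log2FC 0.56, edgeR adjusted p = 0.023), and 2 and 4 had an unadjusted p under 0.05 in edgeR. In the fit without JF16, 6 of the 18 inflammation genes had an unadjusted p under 0.05 in edgeR. In AP-treated old against young mice 2 of the 18 rose, and 4 without JF16, with 9 and 11 at an unadjusted p under 0.05 in edgeR. Counts at the unadjusted level cannot be read as an excess, since the share of all genes at that level was not computed. Within groups, Cxcl2 had its highest rho among the 12 lists compared with these inflammation genes (0.64 over 41 mice and 0.60 without JF16), while that of Cxcl13 was 0.07 and 0.11. That of Cxcl1 was 0.29 in both sets, no higher than its rho with the endothelial markers (0.30 and 0.32).

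The second comparison asked whether the genes that were higher in vehicle-treated old mice were also higher than in young mice when old mice had received AP. Against the same 12 young mice, 2 members rose in the 16 AP-treated old mice, Cxcl2 and Cxcl13, and none fell. Over all tested genes 3.73% were called higher and 4.85% lower, and without JF16, which is in neither group but enters the shared estimate of spread and the filter (19259 genes then tested), the same 2 members rose against 3.99% higher and 4.90% lower. Cxcl13 had a log2FC of 1.66 (standard error 0.33, edgeR adjusted p = 0.000488), with 15 of 16 mice above the young median. Cxcl2 had a log2FC of 1.96 (standard error 0.51, edgeR adjusted p = 0.00614), with 14 of 16 mice above the young median. It was 1.47 without JF29 (edgeR adjusted p = 0.0192).

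Of the 8 members not called in AP-treated old against young mice, Cxcr3 and Cxcl10 had the lowest adjusted p-values. Cxcr3 had a log2FC of 0.65 (standard error 0.25, edgeR adjusted p = 0.0587) and 0.35 without mouse JF18 (edgeR adjusted p = 0.222). Cxcl10 had a value of 0.62 (standard error 0.24, edgeR adjusted p = 0.0614), with 14 of 16 mice above the young median, and 0.42 without JF18 (edgeR adjusted p = 0.182). DESeq2 called both, with adjusted p-values of 0.0397 and 0.0428, and edgeR called Cxcr3 without JF9, JF10 or JF27 and Cxcl10 without JF24, JF27 or JF38. Cxcl1 had the largest log2FC of the 8, 0.77 (standard error 0.70, edgeR adjusted p = 0.471, and 0.151 without JF16). Cxcl9 had 0.44 (edgeR adjusted p = 0.399), and 0.13 without JF18 (edgeR adjusted p = 0.823). Cxcr2 had a log2FC of 0.43 (edgeR adjusted p = 0.125), Cxcr4 of 0.27 (edgeR adjusted p = 0.277), Cxcl14 of 0.14 (edgeR adjusted p = 0.541) and Cxcl16 of 0.04 (edgeR adjusted p = 0.831). The median over the 10 genes was 0.53, beside 0.02 over all tested genes. Of 20 interferon-induced genes, 4 rose in this comparison (Ifit1, Usp18, Oasl2 and Cd274), with log2FCs from 0.58 to 0.65. The comparisons of each old group with the young share the 12 young mice and are given side by side for that reason, without a measure of their likeness.

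**Figure D3:**
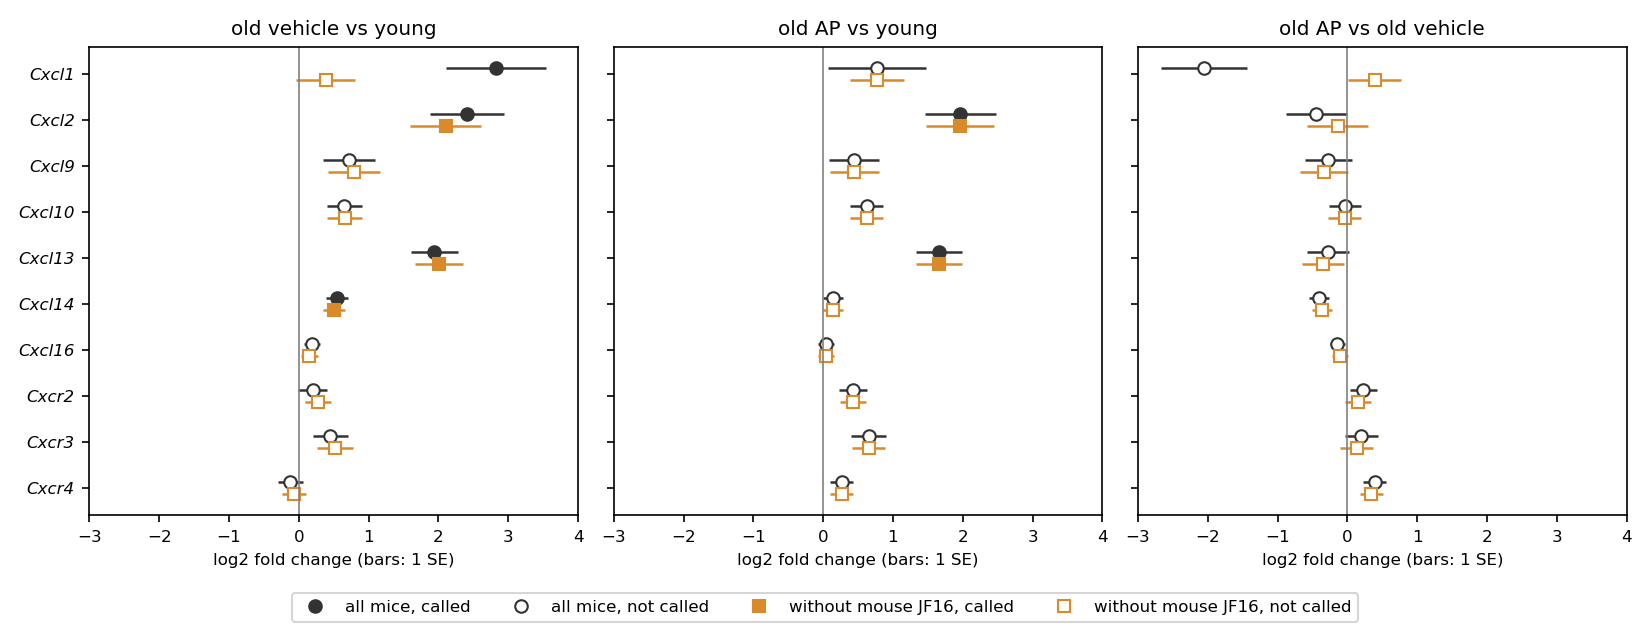
The log2FC of each of the 10 genes with its standard error in the 3 comparisons, with all mice (circles) and without mouse JF16 (squares), filled where called. Cxcl2 and Cxcl13 are filled in both comparisons of old with young mice, and Cxcl1 moves from 2.83 to 0.38 and, under AP, from -2.05 to 0.39 when JF16 is left out.

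The third comparison asked whether AP altered these genes in old mice, between 16 AP-treated and 13 vehicle-treated animals, the latter the same mice as in the comparison with young mice. No member was called by edgeR, DESeq2 or limma voom, and 0.0726% of all genes were called in either direction. Without JF16 it was 0% of all genes and again 0 members. In the edgeR fit 3 members had an unadjusted p under 0.05 (Cxcl1, Cxcl14 and Cxcr4), in DESeq2 2 (Cxcl14 and Cxcr4) and in limma voom 1 (Cxcl14). The share of all genes at that unadjusted level was not computed, so these counts cannot be read as an excess. The median log2FC was -0.21 with and -0.07 without JF16, beside 0.00 over all tested genes.

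Cxcl14 was lower than the vehicle median in 15 of 16 AP-treated mice. Its log2FC was -0.40 (approximate 95% interval -0.69 to -0.12, edgeR adjusted p = 0.1). It was -0.37 without JF16 (edgeR adjusted p = 0.19) and stayed between -0.47 and -0.31 in 29 fits that each left out a mouse. Cxcr4 was above the vehicle median in 12 of 16 AP-treated mice, and 6 of the 16 exceeded the highest vehicle-treated mouse. Its log2FC was 0.39 (interval 0.07 to 0.71, edgeR adjusted p = 0.149), and 0.34 without JF16 (edgeR adjusted p = 0.26). The highest Cxcr4 levels were those of JF19 (216 CPM) and JF18 (190 CPM), which had the lowest limma voom sample weights of the 41 mice. Their summed osteocyte markers were 0.189 and 0.185 times, and their summed muscle markers 0.146 and 0.311 times, the median of the other AP-treated mice. Their summed neutrophil markers were 2.17 and 1.60 times, and their summed erythroid markers 3.39 and 1.72 times, that median. JF19 was also the highest mouse in Cxcr2. Without JF19 the log2FC was 0.29 for Cxcr4 (edgeR adjusted p = 0.327) and 0.10 for Cxcr2 (edgeR adjusted p = 0.791), and without JF18 it was 0.31 for Cxcr4 (edgeR adjusted p = 0.294). The part of cell content in these values was not tested.

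Cxcl1 had the largest value of the 10 under AP, a log2FC of -2.05 (standard error 0.62, edgeR adjusted p = 0.0681), and without JF16 its sign turned, to 0.39 (standard error 0.38, edgeR adjusted p = 0.579). With JF16 in the fit, leaving out mouse JF2, JF9 or JF10 gave edgeR adjusted p-values of 0.0346, 0.033 and 0.0415, so that the call for this gene depended on single mice. For the genes that were higher in both old groups, the intervals under AP were wide and included 0. Cxcl2 had a log2FC of -0.45 (interval -1.31 to 0.42), and -0.14 without JF16 (interval -1.0 to 0.71). Without JF29 it was -0.94 (edgeR adjusted p = 0.147). Cxcl13 had -0.28 (interval -0.87 to 0.30), and -0.35 without JF16 (interval -0.94 to 0.24). Over the fits without single mice Cxcl13 lay between -0.48 (without JF24) and -0.14 (without JF15). Cxcl10 had the value nearest to 0, -0.03 (interval -0.48 to 0.42), and Cxcl16 had -0.14 (interval -0.36 to 0.07). Cxcl9 (-0.27), Cxcr2 (0.23) and Cxcr3 (0.20) had edgeR adjusted p-values from 0.462 to 0.63. Without JF16, Cxcl9 (-0.34), Cxcl10 (-0.04), Cxcl16 (-0.10), Cxcr2 (0.15) and Cxcr3 (0.13) kept their signs, with edgeR adjusted p-values from 0.595 to 0.946. Leaving out other single mice did turn signs, with Cxcl9 at 0.33 and Cxcl10 at 0.19 without JF23, and Cxcr3 at -0.11 without JF18.

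Within groups, pairs of members were compared. Spearman's rho was taken over the 41 mice from log2 CPM centred on each group's mean, and is given as a description, since the mice share their libraries' composition across all genes. The highest value between members was 0.88 for Cxcr2 and Cxcr4. Next came Cxcl9 with Cxcl10 (0.60), Cxcl9 with Cxcr3 (also 0.60), Cxcr3 with Cxcr4 (0.57), Cxcl10 with Cxcl16 (0.48), Cxcr2 with Cxcr3 (0.45) and Cxcl1 with Cxcl2 (0.42). Without JF16 these 7 values were 0.86, 0.64, 0.57, 0.55, 0.47, 0.42 and 0.36.

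For Cxcr2 the genes with the highest rho were Mmp8 (rho 0.97), the neutrophil collagenase, Il18rap (0.96) and Trim30b (0.96). For Cxcr3 they were Il2rb (0.93), a receptor chain of T and NK cells, Cd7 (0.91) and Sh2d2a (0.91). For Cxcr4 they were Acap1 (0.95), Traf3ip3 (0.94) and Mgst2 (0.94). Against the mean of 10 neutrophil markers, rho was 0.91 for Cxcr2 and 0.92 for Cxcr4, and against 10 T and NK cell markers it was 0.92 for Cxcr3. Other lists moved with the receptors too. Cxcr4 had a rho of 0.75 with 8 erythroid, 0.68 with T and NK cell and -0.72 with 8 skeletal muscle markers, and Cxcr2 had 0.64 with the erythroid and -0.53 with the muscle markers. Summed muscle markers had medians of 33690, 56070 and 37650 CPM in young, vehicle-treated old and AP-treated old mice, and 0 of the 8 were called between the old groups. Summed neutrophil markers had medians of 11040, 15300 and 15940 CPM in young, vehicle-treated old and AP-treated old mice, and summed T and NK cell markers 66.8, 94.3 and 95.9 CPM. With age, 0 of 10 neutrophil and 0 of 10 T and NK cell markers were called in vehicle-treated old mice, and 3 and 4 of 10 were called higher in AP-treated old mice. Without JF16 the counts were 0 and 2 in vehicle-treated and 5 and 4 in AP-treated old mice. The part of cell content in the receptor values was not tested.

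**Figure D4:**
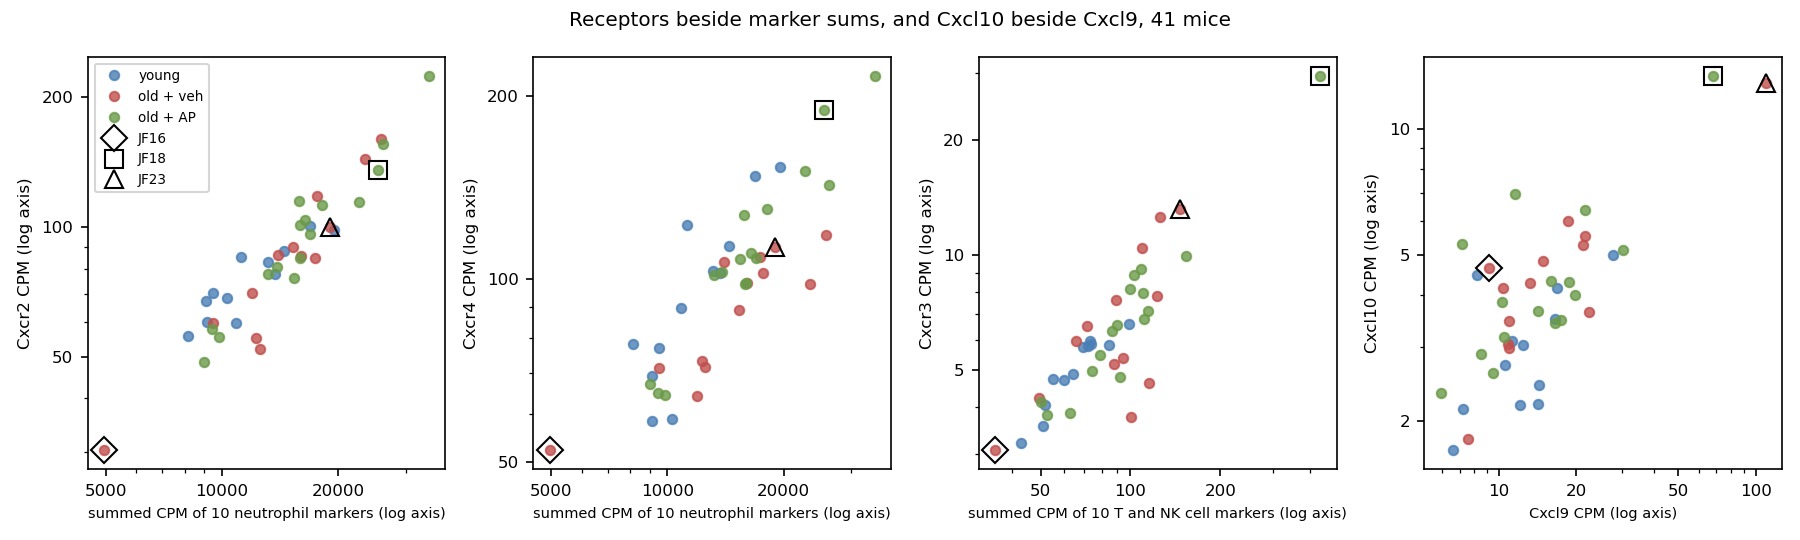
Cxcr2 and Cxcr4 against the summed CPM of 10 neutrophil markers, Cxcr3 against that of 10 T and NK cell markers, and Cxcl10 against Cxcl9, with 1 point per mouse (41 mice), colours for the groups and log axes. JF16 is at the lower left of the receptor panels. JF18 and JF23 are alone at the upper right of the last panel, with Cxcl9 at 68.0 and 109.5 CPM.

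Among the ligands, Cxcl9 was most like Gm4951 (rho 0.84), Gbp2 (0.77), an interferon-induced GTPase, and H2-M2 (0.75), and Cxcl10 was most like Mx1 (0.61), an antiviral protein induced by interferon, its neighbour Cxcl9 (0.60) and Mnda (0.55). Against the mean of 20 interferon-induced genes, rho was 0.79 for Cxcl9 and 0.54 for Cxcl10. Cxcl16 was most like P2ry6 (0.83), Ccl12 (0.81) and the macrophage gene Ms4a7 (0.78). Cxcl14 was most like Emp1 (0.78), Skil (0.74) and the Wnt antagonist Sfrp1 (0.74). The values for Cxcl2 (Fabp5 at 0.72, Ccl9 at 0.67 and Npl at 0.65), Cxcl13 (Dusp2 at 0.61, Igsf9 at 0.58 and Nfkbia at 0.53) and Cxcl1 (Podn at 0.66, Lep at 0.63 and Cfb at 0.62) were lower than those of the receptors. Without JF16, some of the named genes were no longer among the first 3, namely Podn and Cfb for Cxcl1, Npl for Cxcl2, Mnda for Cxcl10, Sfrp1 for Cxcl14, Il18rap and Trim30b for Cxcr2 and Sh2d2a for Cxcr3. Grk5 then came first for Cxcl2 (rho 0.77).

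Cxcl9 and Cxcl10 were highest in the same pair of mice, one from each old group. The vehicle-treated old mouse JF23 had 109.5 CPM of Cxcl9, 9.09 times the median of the other 12, and 12.9 CPM of Cxcl10, 3.05 times their median. The AP-treated old mouse JF18 had 68.0 CPM of Cxcl9, 4.80 times the median of the other 15, and 13.4 CPM of Cxcl10, 3.47 times their median. Both were also the highest of their groups in Cxcr3, at 13.2 and 29.5 CPM, and in the summed interferon-induced genes, at 1251 and 1439 CPM. Their summed T and NK cell markers were 146 CPM in JF23 and 433 CPM in JF18, 1.59 and 4.70 times the median of the other mice of each group. JF18 stood apart in other lists too, at 0.185 times that median for osteocyte, 0.366 for osteoblast, 0.311 for skeletal muscle and 1.60 for neutrophil markers, and had the second lowest sample weight of the 41 mice in limma voom. The AP-treated mouse JF19 had 1244 CPM of the interferon-induced genes and T and NK cell markers at 1.66 times the median of the other 15. Its Cxcl9 (14.2 CPM) and Cxcl10 (3.66 CPM) were nevertheless below the medians of its group. The part of cell content in the Cxcl9 and Cxcl10 values was not tested. Without JF18 and JF23, the same number of members was called in each comparison as with all mice (4, 0 and 2).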

How the data were processed

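Sequencing was performed by the authors on RNA of tibiae from 41 mice. Per the labels, the deposited counts are whole reads per gene, made with TopHat2 2.0.6 and HTSeq on mm10, without normalization. The annotation release, the strand setting and the treatment of reads that map to several genes are not given in the sources used here. Multi-mapping reads would affect Cxcl1, Cxcl2 and Cxcl3, which are close paralogues. The exonic length of each gene, as deposited by the authors, was used only for CPM per kb.

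The groups were taken from the labels (12 young mice, 13 old mice on vehicle, 16 old mice on AP). Labels and study differ on ages, and the labels' ages are given for young mice. Nothing in the labels names a batch. Counts were normalized by TMM and filtered by expression (19292 of 43346 genes kept, 19259 without JF16), and tested by quasi-likelihood with edgeR 4.0.16 in R 4.3.3, with the 3 groups in a single fit. Adjusted p-values are Benjamini-Hochberg values over all tested genes. Genes were called at 0.05 for the adjusted p and 0.5 for the log2 fold change. Log2 CPM used a prior count of 2. Genes most like a member were the 3 with the highest rho among 15541 tested genes averaging at least 1 CPM. The approximate 95% intervals were taken from the standard error. The scripts were tested on simulated data.

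All 10 members were named, with family genes called in a comparison or paired with a member as ligand or receptor. The members and gene lists were chosen with earlier results of these data known. Alternatives were DESeq2 1.42.0, its size factors, limma 3.58.1 (voom with sample quality weights), robust dispersions, no filter on low counts, models of 2 groups, no fold change threshold and each mouse left out. Leaving out JF18 with JF23, and JF13 with JF16 and JF29, was chosen after seeing the data. Protein sequences were not analysed here.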

Additional observations from a re-analysis of the deposited data

How the results depend on the processing

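The number of members called was 4 in vehicle-treated old against young mice, 0 in AP-treated old against vehicle-treated mice and 2 in AP-treated old against young mice. When single mice were left out, the counts lay between 3 and 5, 0 and 1, and 2 and 4. It was 2 in vehicle-treated old against young mice without JF13, JF16 and JF29, and 4 in AP-treated old against young mice with DESeq2. The other alternatives gave counts within 1.5 times these values, though not always of the same genes. With only the 2 groups compared in the fit, Cxcl1 did not pass the filter in either comparison with young mice and was not tested there, and the 4 called in vehicle-treated old against young mice were Cxcl2, Cxcl10, Cxcl13 and Cxcl14. Cxcl2 and Cxcl13 were called against young mice in every alternative that was run.

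Over all genes, the 14 called between the old groups became 0 without JF16, without a filter on low counts, with only the 2 groups compared in the fit, without JF18 and JF23, and without JF13, JF16 and JF29. They became 202 with DESeq2, 31 with limma voom and 33 without a fold change threshold, and lay between 0 and 405 (without JF9) when single mice were left out. Against young mice, the numbers without a fold change threshold were 3736 for vehicle-treated and 3437 for AP-treated mice, in place of 1748 and 1655. When single mice were left out they lay between 1500 and 1975, and between 1416 and 1936.

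Between the old groups, the log2 fold change of Cxcl1 (-2.05) was 0.39 without JF16, 0.41 with DESeq2, which gave no adjusted p, and 0.48 without JF13, JF16 and JF29. Over the fits without single mice it ranged from -2.28 to 0.39. Values near 0 also changed sign. Cxcr3 was -0.03 with limma voom and from -0.11 to 0.31 over those fits, Cxcl9 was 0.02 without JF18 and JF23 and ranged from -0.58 to 0.33, and Cxcl10 ranged from -0.23 to 0.19. Cxcl16 in AP-treated old against young mice ranged from -0.01 to 0.09. In vehicle-treated old against young mice Cxcl1 was also not called by DESeq2 (0.38) or limma voom (0.47), and Cxcl14 (0.43) not by limma voom. The causes were not tested, and for Cxcl1 the value without JF16 is that of the other 12 vehicle-treated mice.

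Cxcl1 and Cxcl2 rest on few counts, and small differences in them were not detectable at this depth. No paired analysis was possible because the mouse numbers are not shared between groups.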
